A study of Homo sapiens with 6 samples.

Results

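The genes described here are 37 genes of luminal prostate cells and of the androgen response, taken as a fixed list of symbols and matched to the Ensembl identifiers of the deposited count and TPM tables. Of the 37, 36 were among the 20263 genes of the tables, and PCAT4, a long non-coding RNA, was not analysed here. The cells are given as LNCaP, an established line from a lymph node metastasis of human prostate cancer that is known for responding to androgen and for secreting prostate-specific antigen. Per the labels, RNA was sequenced from 3 libraries of LNCaP cells carrying an empty vector and 3 of LNCaP cells carrying a vector that overexpresses LINC01518, a non-coding RNA gene. The title and labels name LINC01518 but the series text names MEG3, and the level of either was not analysed here. Whether the cells are 1 clone, which promoter the vector has, how long it acted and whether the medium held androgen were not stated in the sources.

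In luminal cells of the prostate, androgens raise genes of secretion, transport and metabolism through response elements in DNA, together with pioneer factors such as FOXA1 and HOXB13. Kallikreins and acid phosphatase are secreted into seminal fluid, and TMPRSS2, FOLH1 (prostate-specific membrane antigen) and the STEAP proteins sit in membranes. Androgens lower another group of genes, and among the 37 these are UGT2B15, UGT2B17, OPRK1, ACKR3, CAMK2N1 and BCHE, which are known as androgen-repressed rather than androgen-induced.

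The libraries held 38161544 to 42553688 counts each. Values are given as CPM (counts scaled to the library total with TMM factors) where libraries are compared and as TPM (a level that is also scaled for gene length) where genes are compared. For a gene at 0 the upper limit is 3 counts, which is 0.0705 to 0.0786 CPM depending on the library and covers counting error only. In each library 88 to 117 genes had exactly 1 count and 451 to 487 had exactly 2, so counts of 2 were more frequent than counts of 1. The limit of 3 takes counts as independent and may therefore be too low. Of 126 genes with symbols starting NDUF, MRPL or MRPS, 0 had 0 counts in all 6 libraries. Most of the 126 encode subunits of respiratory complex I or of the mitochondrial ribosome, which most cells use. Nothing in the labels says that the libraries are from separate cultures, and p-values then reflect only how these 6 libraries vary, which may be technical. In bulk RNA, fewer cells of a kind and less RNA per cell cannot be told apart.

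Of the 36 genes, 14 had 0 counts in all 6 libraries, 2 had counts but too few to test, and 20 were tested between the vectors. The share at 0 was 38.9%, beside 19.9% of all genes of the table. The genes were chosen with earlier results of these data known, so this share is no independent check. The genes at 0 were the secreted proteins KLK2, KLK3, KLK4, ORM1 and ORM2, the membrane proteins TMPRSS2, FOLH1, TRPM8 and STEAP1, the transcription factor gene MAF, and UGT2B15, UGT2B17, OPRK1 and BCHE of the androgen-repressed genes. In the deposited TPM the same 14 were listed at 0. The 20 tested genes had a median of 14.1 TPM, beside 19.3 TPM over all genes tested, and 12 of them had at least 10 TPM. The cells' label was checked against 12 markers of luminal prostate and of LNCaP: KLK3, KLK2, TMPRSS2 and FOLH1 were at 0, STEAP2 had at most 4 counts in a library, and the other 7 were present. Of these 7, the keratin genes KRT8 and KRT18 had means of 1737 and 1300 TPM over the 6 libraries, while FOXA1 had 4.45, HOXB13 4.27 and SLC45A3 3.38 TPM. The data therefore go against the label for its best-known secreted and membrane markers, and the cells are called here cells labelled LNCaP.

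**Figure D1:**
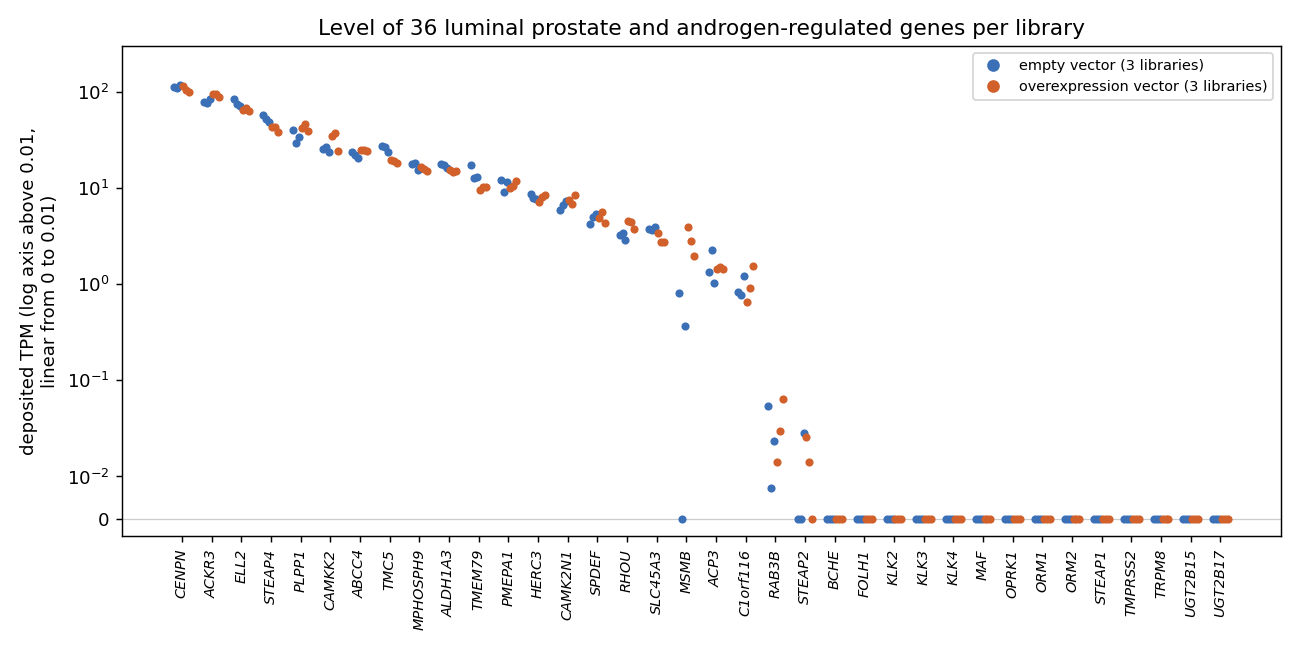
Deposited TPM of the 36 genes in each of the 6 libraries, ordered by their mean; the vertical axis is logarithmic above 0.01 TPM and linear from 0 to 0.01, and points are single libraries. CENPN, ACKR3 and ELL2 were highest, and the 14 genes on the right were listed at 0 in every library.

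The promoters of KLK3, KLK2, STEAP1 and STEAP4 are shown because STEAP1 (0 counts) and STEAP4 (present) are an absent and a present gene of 1 family, and KLK3 and KLK2 are the best-known absent genes. Each line gives the 250 bases before the transcription start in RefSeq (build GRCh38.p14), 5′ to 3′ on the gene's strand, with every CG pair in capitals. KLK3 (chr19:50854665-50854914, plus strand) and KLK2 (chr19:50873189-50873438, plus strand) had 1 and 2 CG pairs. STEAP1 (chr7:90154219-90154468, plus strand), also at 0 counts, had 21, and STEAP4 (chr7:88306895-88307144, minus strand), the most abundant of the membrane genes, had 11.
KLK3: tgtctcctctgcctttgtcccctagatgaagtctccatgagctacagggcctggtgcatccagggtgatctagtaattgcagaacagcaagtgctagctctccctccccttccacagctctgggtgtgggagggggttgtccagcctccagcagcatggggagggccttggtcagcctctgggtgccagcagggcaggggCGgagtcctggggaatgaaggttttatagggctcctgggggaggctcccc
KLK2: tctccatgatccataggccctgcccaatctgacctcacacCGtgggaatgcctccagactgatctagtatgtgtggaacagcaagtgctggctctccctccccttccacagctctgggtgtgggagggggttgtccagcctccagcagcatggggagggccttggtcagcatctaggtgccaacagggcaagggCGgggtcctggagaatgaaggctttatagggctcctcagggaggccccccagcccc
STEAP1: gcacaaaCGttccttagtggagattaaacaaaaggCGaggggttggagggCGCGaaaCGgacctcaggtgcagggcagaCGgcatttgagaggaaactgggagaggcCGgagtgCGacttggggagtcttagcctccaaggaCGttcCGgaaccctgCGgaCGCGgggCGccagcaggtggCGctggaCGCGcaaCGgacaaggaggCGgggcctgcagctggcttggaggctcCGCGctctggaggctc
STEAP4: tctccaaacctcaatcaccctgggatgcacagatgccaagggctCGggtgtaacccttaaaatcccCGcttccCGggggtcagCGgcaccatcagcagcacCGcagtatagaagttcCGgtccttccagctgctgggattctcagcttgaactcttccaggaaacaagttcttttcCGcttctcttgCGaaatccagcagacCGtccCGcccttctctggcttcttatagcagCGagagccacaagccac

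KLK3 and KLK2 shared 208 of 240 aligned bases (86.7%) in these windows, with a longest common run of 80 bases. Beginning 170 bases before the KLK3 start lies the 6-letter element AGAACA, one arm of the androgen response element, here in capitals with 12 bases on either side (chr19:50854733-50854762, plus strand).
KLK3 element: tctagtaattgcAGAACAgcaagtgctagc

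RefSeq promoter windows of 300 bases (250 before the start and 50 after it) matched 25 of the 36 genes by symbol. AGAACA on either strand was found in 4 of the 25 genes, KLK3, UGT2B15, TRPM8 and PMEPA1, and in 14.8% of all 35116 windows. Only exact matches were counted, which leaves out KLK2: its window has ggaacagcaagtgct where that of KLK3 has agaacagcaagtgct. TRPM8 and PMEPA1 had several windows, which raises their chance of a match. The full palindrome, AGAACA followed by any 3 bases and TGTTCT, was in 0 of the 25 genes and in 1 of the 35116 windows. The letters TATAAA on either strand were in 6 of the 9 matched genes at 0 counts, KLK2, KLK3, ORM1, MAF, TRPM8 and BCHE, in 1 of the 2 with counts below the filter (STEAP2), and in 0 of the 14 that were tested. Over all genes of the table with a window, TATAAA was in 24.3% of those at 0 counts and in 8.4% of those tested, and in 11.5% of all windows. CG pairs had a median of 2.83 per window in the 9 genes at 0 and of 22.5 in the 14 tested genes, beside 5.42 and 25 over all genes of the same 2 classes. These are descriptions of the letters in the windows, not of binding.

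**Figure D2:**
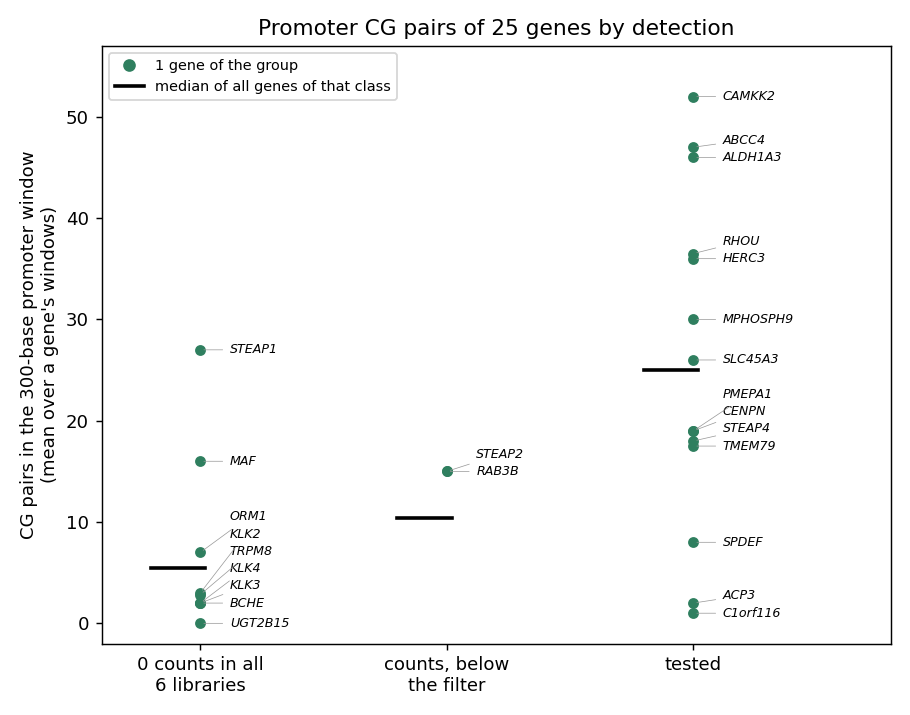
CG pairs per 300-base promoter window (mean over a gene's windows) of the 25 genes with a RefSeq window, by detection class; the bar is the median over all genes of the table in that class. Most genes at 0 counts had few CG pairs, with STEAP1 (27) and MAF (16) highest among them, while ACP3 (2) and C1orf116 (1) were present with few.

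Between the vectors, 2 of the 20 tested genes passed an adjusted p of 0.05 in edgeR's quasi-likelihood test, both lower with overexpression and 0 higher. This is 10% of the tested members, beside 5.6% of the 13543 genes tested (3.57% higher and 2.03% lower). At an unadjusted p under 0.05 there were 11 of the 20, beside 23.6% of all genes tested. DESeq2 called 7 of the 20 (9.72% of all genes) and limma-voom 3 (5.52%). Of the 20, 19 met the minimum count in every library and 1, MSMB, only in the overexpression libraries. The groups did not overlap for 12 of the 20, 5 higher and 7 lower, beside 31.4% of all genes tested. The median log2 fold change of the 20 was 0.05 and that of all genes tested was -0.0035, and the median absolute log2 fold change was 0.27 beside 0.13.

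KLK3 encodes prostate-specific antigen, KLK2 a kallikrein that activates it, and KLK4 a further kallikrein of the prostate, and the 3 genes lie in the kallikrein cluster of chromosome 19 (KLK3 at 50854915 to 50860764, KLK2 at 50861568 to 50880567 and KLK4 at 50906352 to 50910738, GRCh38, GENCODE release 29). Of all 15 kallikrein genes of the cluster, 9 had 0 counts in all 6 libraries, 4 had at most 3 counts in every library, KLK10 had at most 4, and 1 was tested. The tested gene was KLK1, tissue kallikrein, with 16, 9 and 9 counts in the empty vector libraries and 25, 26 and 31 in the overexpression libraries. It met the minimum count in 1 of the 3 empty vector libraries and in all 3 overexpression libraries, so it was tested because of the group where it is high. Its log2 fold change was 1.304 (SE 0.340, edgeR adjusted p = 0.0653). Reads from sequence that genes share may not be counted for either, so the 31-base words of each gene's transcripts were compared with those of all other GENCODE genes: 98.0% of the KLK2 words, 98.8% of the KLK3 words and 98.9% of the KLK4 words occurred in no other gene. For KLK9, also at 0, only 9.8% of words did, and 93.7% of its exonic bases overlap exons of another gene, so its 0 says little.

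ORM1 and ORM2 encode orosomucoids, plasma glycoproteins that androgens raise in prostate lines, and they lie side by side on chromosome 9 with 3.4 kb between them. Only 50.2% of the ORM1 words and 40.7% of the ORM2 words were found in no other gene, which left 437 and 297 words where reads could be told apart, and both genes were at 0. ACP3, prostatic acid phosphatase, was present at a low level, with 1.35, 2.25 and 1.03 TPM in the empty vector libraries and 1.45, 1.52 and 1.45 TPM in the overexpression libraries. The ACP3 groups overlapped, and its log2 fold change in CPM was 0.32 (SE 0.254, edgeR adjusted p = 0.498).

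MSMB, a small secreted protein of prostatic fluid, was the other of the 2 tested genes among the 7 secreted ones. It had 8, 0 and 4 counts with empty vector and 42, 28 and 19 with overexpression. It met the minimum count in 0 of the empty vector libraries and in all 3 overexpression libraries, so it was tested only because of the group where it is high and had to differ. With that limit, the log2 fold change was 2.88 (SE 0.675) and the edgeR adjusted p of 0.0504 did not pass 0.05. The log2 fold change was 3.82 without empty vector replicate 1 and 2.28 without empty vector replicate 2, and the adjusted p was 0.0489 without a count filter (edgeR) and 0.0490 on log2(TPM + 1) (limma-trend). Its mean level was 1.65 TPM and all 31-base words of MSMB occurred in no other gene.

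Of the 9 genes of membrane proteins and transport, 4 were at 0, and FOLH1 and STEAP1 among them shared sequence with other genes (61.3% and 66.5% of words in no other gene), whereas TMPRSS2 and TRPM8, a cold-sensing channel, were nearly unique (97.3% and 97.0%). STEAP1B, the close paralog of STEAP1, also had 0 counts. The STEAP genes differed widely: STEAP1 was at 0, STEAP2 had 0, 0 and 4 counts with empty vector and 4, 2 and 0 with overexpression, STEAP3, which is no member of the list, had a mean of 33.1 TPM, and STEAP4 had 47.2 TPM. STEAP1 and STEAP2 are neighbours on chromosome 7 with 2.8 kb between them, and STEAP4 lies 1847.5 kb from STEAP1.

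STEAP4 fell. Its level was 236, 221 and 217 CPM in the empty vector libraries and 192, 188 and 168 CPM in the overexpression libraries, so every overexpression library was below every empty vector library. The mean went from 225 ± 9.86 to 183 ± 12.9 CPM (SD, n = 3 each), 1.23-fold lower, and the log2 fold change was -0.30 (SE 0.062, edgeR adjusted p = 0.0354). The call was lost in each of the 6 edgeR fits without 1 library (adjusted p from 0.0571 to 0.101).

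TMC5, a transmembrane channel-like gene, fell too. It had 48.8, 50.1 and 48.1 CPM with empty vector and 38.1, 39.0 and 37.1 CPM with overexpression. The groups lay far apart against their spread, with means of 49.0 ± 1.002 and 38.1 ± 0.966 CPM (SD, n = 3 each), 1.29-fold lower, and the log2 fold change was -0.36 (SE 0.056, edgeR adjusted p = 0.0144). The edgeR adjusted p was 0.0516 without empty vector replicate 2, 0.0565 without overexpression replicate 1 and 0.0638 without overexpression replicate 3, and it stayed under 0.05 in the other 3 fits without 1 library.

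The remaining membrane genes did not pass. SLC45A3 (prostein), a luminal sugar transporter, had 6.17, 6.12 and 6.76 CPM with empty vector and 6.001, 4.78 and 4.76 CPM with overexpression, with no overlap but a narrow gap and an edgeR adjusted p = 0.212. ABCC4, an efflux pump for cyclic nucleotides and drugs, had 65.8, 63.6 and 60.3 CPM against 73.8, 71.9 and 71.4 CPM, without overlap (log2 fold change 0.19, SE 0.053, edgeR adjusted p = 0.075; 0.0408 with DESeq2).

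**Figure D3:**
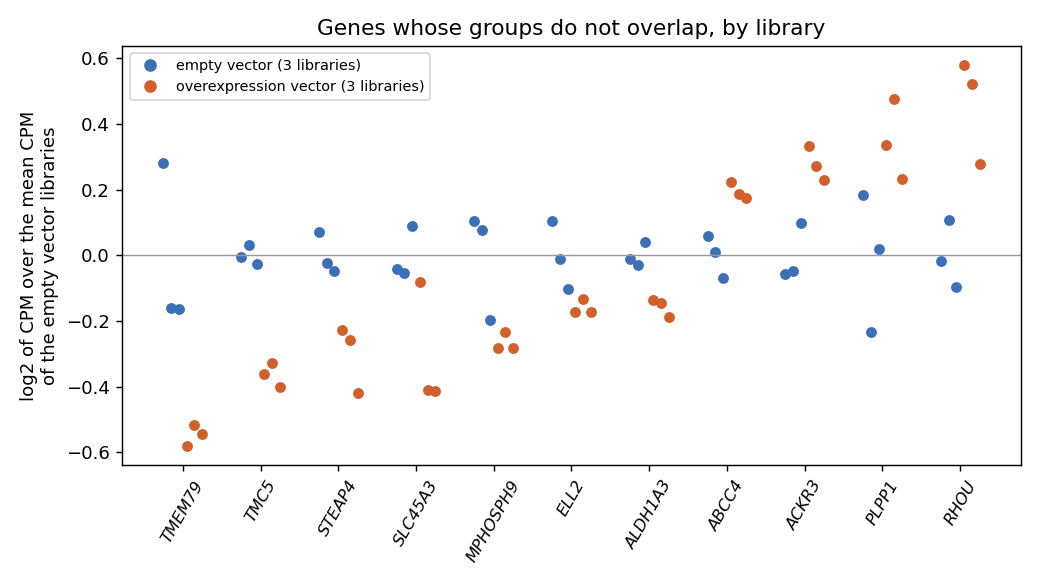
CPM of each library relative to the mean of the 3 empty vector libraries, on a log2 scale, for 11 of the 12 genes whose groups did not overlap (MSMB, which has a library at 0, is left out). TMEM79, TMC5, STEAP4 and others lay below the empty vector libraries, and ABCC4, ACKR3, PLPP1 and RHOU above them.

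Among the regulators, MAF was at 0 and RAB3B, a secretory vesicle GTPase, had 2 to 16 counts per library and was not tested. ELL2, an elongation factor of RNA polymerase II, was abundant, with 83.4, 75.4 and 70.8 TPM with empty vector and 64.5, 67.5 and 62.8 TPM with overexpression. In CPM the ELL2 groups did not overlap, with a log2 change of -0.16 (SE 0.058, edgeR adjusted p = 0.153). RHOU, a small GTPase, had 6.93, 7.55 and 6.56 CPM against 10.5, 10.1 and 8.50 CPM, without overlap, and its log2 fold change of 0.46 (SE 0.113) did not pass (edgeR adjusted p = 0.0541; 0.0249 with DESeq2).

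CAMKK2, a kinase that activates AMPK and is known to be raised by androgen, was level in counts, with 58.6, 62.1 and 57.2 CPM against 58.4, 61.6 and 63.0 CPM. Its deposited TPM were not level: 25.6, 26.8 and 23.7 with empty vector and 34.3, 37.1 and 24.4 with overexpression, so overexpression libraries 1 and 2 stood above the other 4. The log2 fold change was 0.04 in counts (SE 0.058, edgeR adjusted p = 0.720) and 0.31 on log2(TPM + 0.1) (limma-trend adjusted p = 0.303). What made the 2 tables differ for this gene was not tested.

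PMEPA1, an androgen-induced inhibitor of TGF-beta signalling, had 28.4, 18.7 and 28.7 CPM with empty vector and 25.2, 25.5 and 29.9 CPM with overexpression, and empty vector library 2 was the lowest of the 6. Without that library the log2 fold change went from 0.09 to -0.09. SPDEF, a luminal ETS factor, lay between 3.95 and 5.54 CPM and HERC3, a ubiquitin ligase, between 13.7 and 15.6 CPM, with overlapping groups (edgeR adjusted p = 0.845 and 0.848).

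All 6 genes of the metabolic and remaining group were tested and 0 passed, with 4 of the 6 at an unadjusted p under 0.05 (23.6% of all genes tested). TMEM79, a membrane protein of the trans-Golgi network, had 18.7, 13.8 and 13.7 CPM with empty vector and 10.3, 10.7 and 10.6 CPM with overexpression. The groups lay apart, empty vector library 1 was the highest, and the log2 fold change was -0.55 (SE 0.130, edgeR adjusted p = 0.0509; 0.00712 with DESeq2). Of the exonic bases of TMEM79, 19.8% overlap exons of GLMP, where the counting cannot tell the 2 genes apart without strand.

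PLPP1, a lipid phosphate phosphatase, had 31.05, 23.2 and 27.7 CPM against 34.5, 37.97 and 32.1 CPM, higher in each overexpression library, with a log2 change of 0.35 (SE 0.114, edgeR adjusted p = 0.114; 0.0495 with DESeq2). MTREX exons cover 23.9% of its exonic bases. ALDH1A3, which makes retinoic acid, had 30.8, 30.4 and 31.9 CPM against 28.2, 28.1 and 27.2 CPM (edgeR adjusted p = 0.162), and MPHOSPH9, a phosphoprotein of centrioles, 34.3, 33.6 and 27.8 against 26.2, 27.1 and 26.2 CPM (edgeR adjusted p = 0.121). Both were lower in every overexpression library without passing the threshold.

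CENPN, a protein of the centromere, was the most abundant of the 36 genes per length, at 110 TPM (99.5 to 118 over the libraries), 111 times C1orf116 (specifically androgen-regulated gene), the least abundant tested gene at 0.990 TPM. The CENPN groups overlapped (edgeR adjusted p = 0.297), and 20.1% of its exonic bases overlap exons of other genes of the table, CMC2 among them. C1orf116 had 1.73, 1.41 and 2.27 CPM with empty vector and 1.88, 2.59 and 3.15 CPM with overexpression (edgeR adjusted p = 0.280).

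**Figure D4:**
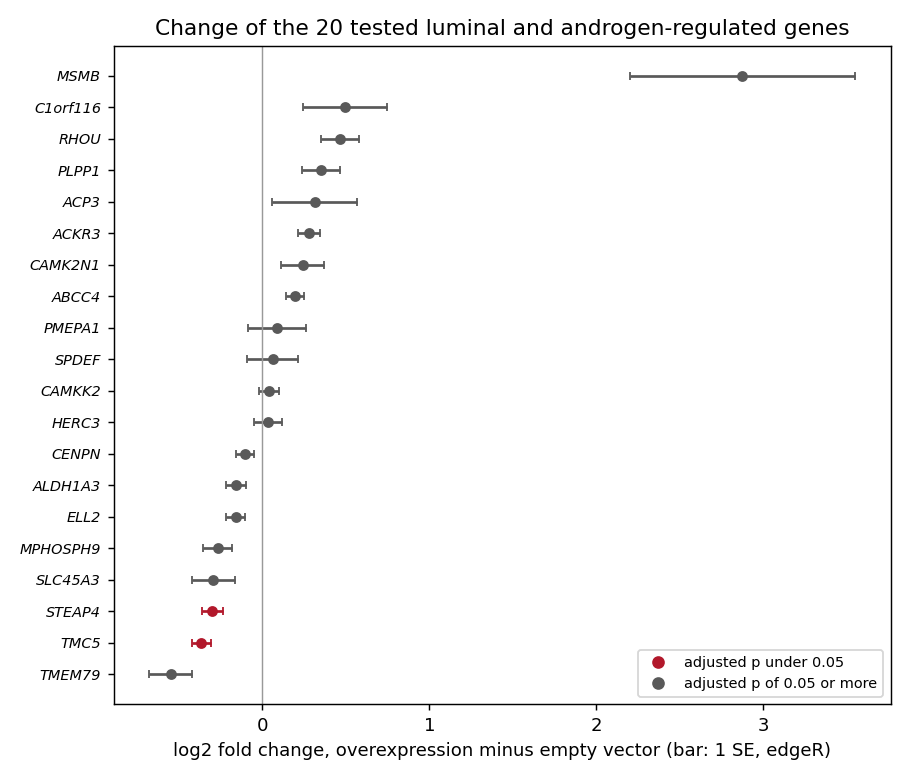
Log2 fold change (overexpression minus empty vector, edgeR) of the 20 tested genes with a bar of 1 SE on either side; red points have an adjusted p under 0.05. TMC5 and STEAP4 passed; MSMB, with the widest error, was tested only because of its overexpression libraries.

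Of the androgen-repressed genes, UGT2B15 and UGT2B17, which inactivate androgens by glucuronidation, were at 0, as were the other 5 UGT2B genes of the table. They share sequence with other genes, and 1206 and 1229 of their 2047 words each occurred in no other gene. BCHE, butyrylcholinesterase, and OPRK1, the kappa opioid receptor, were at 0 with 100% and 97.7% of words in no other gene. ACKR3, an atypical chemokine receptor that binds CXCL12, was by contrast the second most abundant of the 36 genes, at 86.6 TPM. It had 40.0, 40.3 and 44.5 CPM with empty vector and 52.4, 50.2 and 48.8 CPM with overexpression, without overlap, and a log2 change of 0.28 (SE 0.066, edgeR adjusted p = 0.0504; 0.00961 with DESeq2 and 0.0481 with limma-voom). CAMK2N1, an inhibitor of CaM kinase II, had 6.81, 7.76 and 8.85 CPM against 9.24, 8.23 and 10.2 CPM, with overlap (edgeR adjusted p = 0.301).

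The other genes of the pathway were taken from 2 lists. Of 20 regulators of the androgen axis (receptors, pioneer factors, coregulators and steroid enzymes), 19 were tested and 0 were called by edgeR, with 4 at an unadjusted p under 0.05, and their median log2 fold change was 0.02. GRHL2, an epithelial pioneer factor, had at most 2 counts in a library, while the demethylase KDM1A (131 TPM) and the chaperone FKBP4 (117 TPM) were among the most abundant of the list. Of 29 other androgen-induced genes, 2 were at 0 (ADAM7 and ZBTB16), HPGD was below the filter, 26 were tested, and 4 rose and 0 fell by edgeR, with 12 at an unadjusted p under 0.05 and a median log2 fold change of 0.08, beside 3.57% higher, 2.03% lower and 23.6% at that p over all genes. The groups lay apart for 10 higher and 5 lower genes of the 26 (31.4% of all genes in either direction). Among the 10 was HOMER2, which met the minimum count in 0 empty vector libraries and in all 3 overexpression libraries. HOMER2 was thus tested only because of the group where it is high. Among the 5 was FKBP5, named after its values were seen, at 52.6 ± 2.20 and 38.2 ± 12.3 CPM (SD, n = 3 each, edgeR adjusted p = 0.342). Among the 4 were NDRG1 (420 ± 26.4 to 531 ± 40.6 CPM, SD, n = 3 each), IDI1 of isoprenoid synthesis, and DBI, an acyl-CoA binding protein (edgeR adjusted p from 0.0287 to 0.0343 for these 3).

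Markers of other cells were summed in each library to set beside these values. The 8 fibroblast markers summed to 112 to 122 CPM with empty vector and to 154 to 159 CPM with overexpression, and the 9 neuroendocrine markers to 62.6 to 71.0 and 78.7 to 81.7 CPM, both without overlap. ENO2 alone had 65.5 and 79.2 CPM in the means of the 2 groups, and COL1A1 and PDGFRB alone had 82.4 and 29.7 CPM with empty vector and 114 and 36.8 CPM with overexpression, so the sums are nearly those of these 3 genes. Defining genes of both lists were at 0 in all libraries (LUM, PDGFRA and FAP, and CHGB, NCAM1 and SCG3). The 10 basal markers summed to 1088 to 1267 and 1154.5 to 1277 CPM, with overlap. The part of these markers in the differences of STEAP4 and TMC5 was not tested.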

How the data were processed

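Tools named in the submitters' processing notes, without their roles, are Trimmomatic 0.36, HISAT2, featureCounts, Subread 1.5.1 and DESeq, and the build is GRCh38. The authors deposited raw counts per gene and TPM per gene. How the TPM were made, the annotation release and the strand setting were not stated in the sources. Symbols came from a gene name table (20148 of 20263 genes) and positions from GENCODE release 29.

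The counts were fitted in R 4.3.3 with edgeR 4.0.16 over all genes (filterByExpr with a minimum count of 10 and total of 15, TMM scaling, robust quasi-likelihood F test, group as the only term, Benjamini-Hochberg adjustment over 13543 genes, called under 0.05). CPM are TMM-scaled, the SE is the log2 fold change divided by the root of F, and spreads are the SD of 3 libraries. The fits were tested on simulated data. The simulated counts took their levels and spread from these 6 libraries, so they do not bear on how the libraries were replicated. DESeq2 1.42.0 and limma 3.58.1 gave alternatives. Levels of different genes were compared on TPM. Genes were named by a rule that covers all members, those passing or with groups apart in full, and called, absent or abundant genes of the other lists. The members and lists were chosen with earlier results of these data known. Some genes of the lists are counted but not reported here by name.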

Additional observations from a re-analysis of the deposited data

How the results depend on the processing

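The number of genes called was 759 with edgeR and TMM (5.6% of those tested), 1316 with DESeq2 (9.72%) and 787 without a count filter (4.85%). It was 236 on log2(TPM + 1) (1.83%), 225 on log2(TPM + 0.1) (1.75%) and 193 to 458 without 1 library (1.41% to 3.35%). The number of members called, 2, was 4 without a count filter (MSMB among them), 7 with DESeq2 and 0 to 3 without 1 library. On log2(TPM + 1) it was 1, MSMB, with means of 0.390 TPM with empty vector and 2.91 TPM with overexpression. The filter there was a mean of 0.5 TPM over all libraries. MSMB thus entered that fit only because of the group where it is high, and its call there is no support for a change. STEAP4 and TMC5 lost their calls on that scale (limma-trend adjusted p = 0.0857 and 0.0517). On log2(TPM + 0.1) the number of members called was 0, with 10 members at an unadjusted p under 0.05, beside 2801 of the 12887 genes tested. Scaled by library size alone, edgeR called 346 genes higher and 382 lower (5.38% of those tested), against 484 and 275 with TMM. It called 3 members with that scaling, all lower. The edgeR fit with the replicate number as a replicate block called 232 genes (1.71% of those tested) and 0 members. At an unadjusted p under 0.05 it had 10 members, beside 2905 of the 13543 genes tested. STEAP4 and TMC5 had edgeR adjusted p = 0.0521 and 0.0560 in that fit. Deviations of same-numbered libraries correlated at only 0.0367 to 0.0547, so the numbers were not taken to pair the libraries, although each library correlated best with its own number. The number of members at 0 counts, 14, was 14 on TPM, 14 with at most 3 counts in every library, 16 with a mean under 0.1 TPM and 15 with at most 6 counts, a limit chosen after seeing the data.

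Of the 20 tested members, 16 kept their sign in every alternative. The others were not called: ACP3 was at -0.011 on log2(TPM + 1), SPDEF lay between -0.045 and 0.158 without 1 library, PMEPA1 was at -0.0053 and -0.0051 on the 2 TPM scales and between -0.089 and 0.190 without 1 library, and HERC3 was at -0.033 and -0.036 on TPM and between -0.0074 and 0.081 without 1 library. Changes of genes at 0 were not detectable at this depth.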

Other observations

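Of 10 basal epithelial markers 7 were tested, and KRT17 (726 TPM), CD44 (164 TPM) and ITGB4 (107 TPM) had the highest levels while KRT5, KRT14 and KRT6A had at most 3 counts in every library. By edgeR, LAMB3, a laminin chain, rose from 166 ± 2.65 to 212 ± 7.53 CPM and COL17A1, a collagen of hemidesmosomes, from 1.37 ± 0.140 to 2.57 ± 0.503 CPM, and ITGB4, an integrin of hemidesmosomes, fell from 318 ± 16.4 to 257 ± 19.1 CPM (SD, n = 3 each; adjusted p = 0.00818, 0.0403 and 0.0379). Of 9 neuroendocrine markers, ENO2 rose, 1 other was tested, and CHGB, NCAM1 and SCG3 were at 0. Of 8 fibroblast markers, 4 were tested, COL1A1 and PDGFRB rose, and LUM, PDGFRA and FAP were at 0. Immune and endothelial lists had 0 called of 2 and 3 tested by edgeR, with 0 at an unadjusted p under 0.05. PTPRC, CD3E and KDR were at 0. Over all genes tested, edgeR called 5.6% and 23.6% had an unadjusted p under 0.05, so 0 called in lists this small says little.

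Of 12 further luminal or epithelial genes listed, 11 were in the table, 7 were tested, and KRT19, AGR2 and NPY were at 0. The groups lay apart for 3 higher genes (KRT8, CD24 and CDH1) and 2 lower genes of the 7, beside 31.4% of all genes tested in either direction. CDH1 was not called (edgeR adjusted p = 0.380). KRT8 rose from 1363 ± 62.1 to 1670 ± 46.2 CPM, and CD24, a surface glycoprotein, from 31.6 ± 3.34 to 44.8 ± 1.79 CPM (SD, n = 3 each; edgeR adjusted p = 0.0187 and 0.0207). Named after their values were seen, AMACR, a racemase of branched fatty acids, had 11.8 ± 2.30 and 6.81 ± 1.35 CPM and PDLIM5 46.8 ± 3.22 and 40.1 ± 2.20 CPM, lower without overlap and not called (edgeR adjusted p = 0.0582 and 0.123), and the adhesion genes CDH1 and EPCAM had means of only 0.751 and 0.441 TPM.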
